A study of Danio rerio with 6 samples.

Results

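The visual opsins are the light-absorbing receptors of the eye. They are G protein-coupled receptors that hold a retinal chromophore in the outer segments of photoreceptors, and each cone or rod mostly makes a single type. On absorbing light an opsin activates transducin, which switches on a phosphodiesterase and closes cation channels. Zebrafish have cones for ultraviolet, blue, green and red light as well as rods, and by the third day of development the retina already holds both cones and rods that transcribe their opsin genes.

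Of 31452 genes listed, the 7 described here are the visual opsin genes chosen by symbol: opn1sw1 (ultraviolet cones), opn1sw2 (blue cones), opn1mw1 and opn1mw2 (green cones), opn1lw1 and opn1lw2 (red cones) and rho (rhodopsin of rods). RNA was sequenced from 6 pools of 15 whole zebrafish embryos at 3 days post fertilisation. In 3 pools the embryos made EWSR1-ERG in neurons, from the transgene Tg(14xUAS:GFP-EWSR1-ERG), driven by Et(E1b:Gal4-VP16)s1101t in the presence of Tg(UAS:Kaede) s1999t. The other 3 pools were wild-type siblings that did not express EWSR1-ERG, and their label names the same cross; which of the transgenes these controls had is not stated in the labels. EWSR1-ERG is an oncogenic human fusion, known from Ewing sarcoma, in which part of the RNA-binding protein EWSR1 is joined to the ETS transcription factor ERG. The pools are called biological replicas in the labels, which do not say whether they came from separate clutches, so the p-values measure only the spread between these pools, which may be technical. The transgene's own RNA has no value here, so whether photoreceptors made the fusion protein is not known from these data.

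Library totals ran from 4771843 to 6474430 counts in 5 libraries and reached 13338802 in EWSR1-ERG replicate 3, which was also the single library from sequencing lane 1. Mitochondrial genes took 3.87% to 4.35% of each wild-type library and 2.64% to 2.99% of each EWSR1-ERG library. With these genes left out, the log2 fold changes of the opsins were as large, at -3.31 for rho and -3.14 for opn1sw1. Of 15 photoreceptor markers other than visual opsins, 14 were matched and each of these was detected. Transcripts of photoreceptors were thus present in both groups. In whole-embryo RNA, fewer photoreceptors and less RNA per photoreceptor cannot be told apart.

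The opsin genes lie in 4 places of the genome. On chromosome 11 the rows are opn1sw2 (ENSDARG00000017274), opn1lw1 (ENSDARG00000044862) and opn1lw2 (ENSDARG00000044861), which follow each other with no other protein-coding gene between them in the RefSeq annotation of GRCz12tu. The green opsin rows opn1mw1 (ENSDARG00000044280) and opn1mw2 (ENSDARG00000094617) are on chromosome 6, opn1sw1 (ENSDARG00000045677) is on chromosome 4 and rho (ENSDARG00000002193) on chromosome 8 of Zv9, the build named in the submitters' processing notes. Within the green and red groups the genes are close copies, so reads could be shared or split between them, depending on how the authors' counting treated reads that map to more than 1 place. The identity of the green rows carries a further doubt. The identifier that the files list as opn1mw1 is paired with opn1mw2 in the gene name table used here, and the identifier listed as opn1mw2 has no entry there. The names below are those of the files, and which green paralog each row counts was not settled.

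Counts from all 7 opsins together fell in embryos with EWSR1-ERG. They made up 0.657%, 0.674% and 0.599% of all counts in the wild-type pools and 0.0764%, 0.0912% and 0.0866% in the EWSR1-ERG pools. The groups were far apart in this share, and each group was narrow. On the CPM scale (counts relative to library size, scaled by trimmed mean of M values), the sum was 6497 ± 209 (SD, n = 3) without and 847 ± 77.1 (SD, n = 3) with EWSR1-ERG. The difference of mean log2 values was -2.94, which is 7.69-fold lower (two-sided exact permutation p = 0.1, the smallest that 3 pools against 3 allow).

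In edgeR's quasi-likelihood test, adjusted over all genes by Benjamini-Hochberg, 6 of the 7 opsin genes were lower at an adjusted p under 0.05, none was higher and 1, opn1mw2, did not pass. Among all 17557 tested genes, 9.87% were lower and 7.46% higher. The median log2 fold change of the 7 was -2.73, against 0.00 for all tested genes. All 7 had enough counts to be tested. The 6 lower genes ranged from -3.31 for rho to -2.58 for opn1sw2, a span of 1.66-fold between the largest and the smallest decrease. Only 81 tested genes, or 0.461%, had a log2 fold change below that of opn1sw2, and the other lowered opsins are among them.

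**Figure D1:**
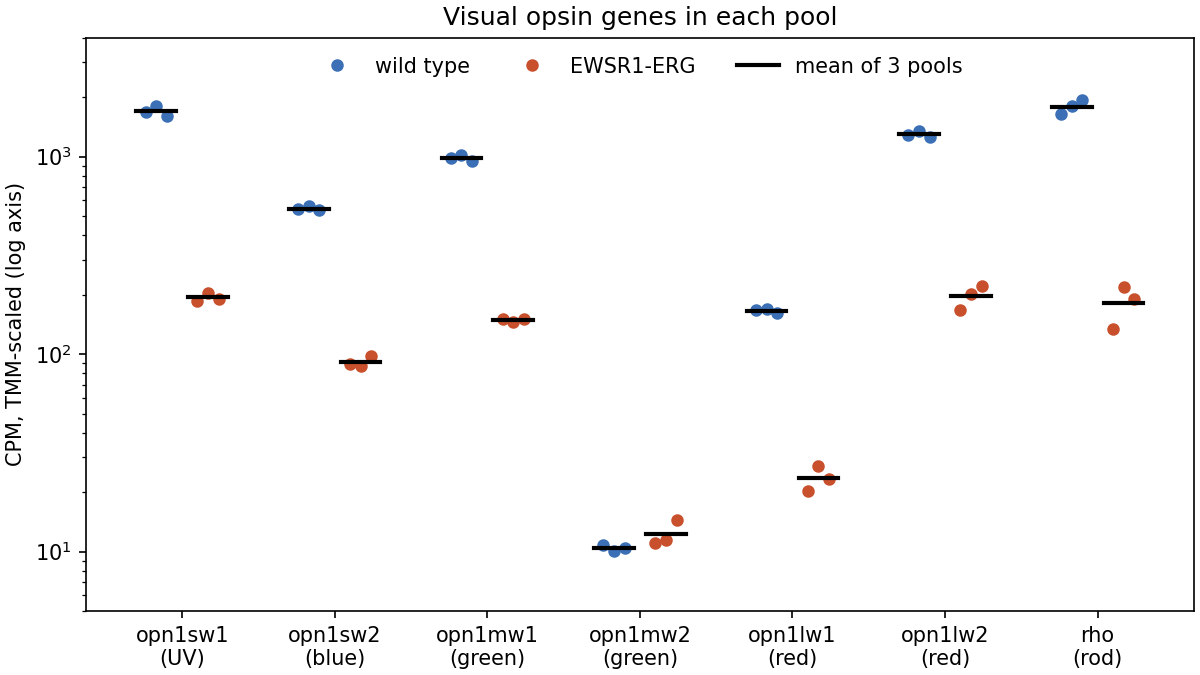
CPM of the 7 opsin genes in each pool on a log axis, with wild-type pools in blue, EWSR1-ERG pools in red and black bars for the mean of 3 pools. For 6 genes every EWSR1-ERG pool lay far below every wild-type pool, while opn1mw2 stayed between 10.1 and 14.5 CPM in all 6 pools. Groups that do not overlap in the lower direction, by any margin, were found in 18.0% of all tested genes. Heights of different genes are not comparable because no transcript lengths were used.

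The ultraviolet opsin gene opn1sw1, which serves the short-wavelength cones that zebrafish larvae use in hunting, stood at 1692, 1808 and 1605 CPM in the wild-type pools. In the EWSR1-ERG pools it stood at 186, 205 and 191 CPM. No EWSR1-ERG pool came near a wild-type pool, and the coefficient of variation was 5.97% and 5.10% in the 2 groups. The log2 fold change was -3.13 (SE 0.124, adjusted p = 2.43e-09), or 8.78-fold lower.

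Expression of the blue opsin gene opn1sw2 was 542, 561 and 534 CPM in wild-type pools and 89.0, 87.0 and 97.4 CPM in pools with EWSR1-ERG. This was the least lowered of the 6, with a log2 fold change of -2.58 (SE 0.111, adjusted p = 2.43e-09), or 5.98-fold lower. The wild-type pools differed from each other by little here, with a coefficient of variation of 2.56%.

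Among the green opsins, the row opn1mw1 held nearly all counts. Its values were 979, 1021 and 954 CPM in wild-type pools and 150, 145 and 150 CPM in EWSR1-ERG pools, so the EWSR1-ERG pools were nearly alike, with a coefficient of variation of 1.94%. The log2 fold change was -2.73 (SE 0.114, adjusted p = 2.43e-09). With the 4 green opsin rows of the files summed into 1, a setting chosen after seeing the data, it was -2.63 (adjusted p = 2.5e-09). The decrease of green opsin counts as a class thus does not depend on which row carries which name.

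The row opn1mw2 behaved differently. It had 64, 52 and 46 counts in the wild-type libraries and 72, 65 and 189 in the EWSR1-ERG libraries. On the CPM scale these were 10.8, 10.1 and 10.4 against 11.03, 11.4 and 14.5. Every EWSR1-ERG pool was above every wild-type pool, by a small margin, and the highest value came from the library of the other lane. Groups that do not overlap in the higher direction were found in 17.1% of all tested genes. The log2 fold change of 0.26 (SE 0.175) did not pass the test (adjusted p = 0.358), and without EWSR1-ERG replicate 3 it was 0.10 (adjusted p = 0.787). From the summed counts of 162 and 326, the ratio of EWSR1-ERG to wild type was 1.23, with an exact 95% interval of 1.02 to 1.50 that covers counting error only and not the spread between pools. A decrease of the size seen in the other opsins was therefore well outside what counting error allows for this row.

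The remaining green opsin rows were at the limit of detection. The row opn1mw3 had 5, 5 and 1 counts in the wild-type libraries and 0, 1 and 0 in the EWSR1-ERG libraries. The row opn1mw4 had a single count, in EWSR1-ERG replicate 3. Neither was tested, and a library with 0 counts allows up to 3, or 0.225 to 0.629 CPM.

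Of the red opsins, opn1lw2 stood at 1286, 1341 and 1259 CPM in wild-type pools and at 167, 201 and 221 CPM in those with EWSR1-ERG (log2 fold change -2.72, SE 0.133, adjusted p = 8.57e-09). Its paralog opn1lw1 stood at 167, 169 and 162 CPM and at 20.4, 27.1 and 23.2 CPM (-2.82, SE 0.120, adjusted p = 2.43e-09). Both were clearly separated between the groups, by 6.59-fold and 7.06-fold. In both red genes the EWSR1-ERG pools varied more than the wild-type pools, with coefficients of variation of 13.9% and 14.4% against 3.20% and 2.32%.

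Rhodopsin, the pigment of dim-light vision, had the largest decrease. Expression of rho was 1635, 1813 and 1931 CPM in wild-type pools and 134, 219 and 190 CPM in EWSR1-ERG pools. It was also the opsin gene with the widest spread among EWSR1-ERG pools, 23.7%, where replicate 1 was the lowest. The log2 fold change was -3.31 (SE 0.173, adjusted p = 2e-08), or 9.90-fold lower, and 30 tested genes had a lower value. Without EWSR1-ERG replicate 1 it was -3.13.

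The deviations of single pools were not shared by all opsins. Wild-type replicate 3 had the highest rho value of its group and the lowest opn1sw1, opn1sw2, opn1mw1, opn1lw1 and opn1lw2 values. EWSR1-ERG replicate 1 was the lowest of its group in opn1sw1, opn1lw1, opn1lw2 and rho, and the highest in opn1mw1. In rho that pool lay 0.40 below the mean of its group on the log2 scale, and in opn1mw1 0.02 above it.

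Ratios between opsins within a library need no scaling between libraries, and they show whether 2 opsins changed by unequal factors. All 21 pairs were compared. In 16 of them the groups did not overlap, each with a two-sided exact permutation p of 0.1, the smallest that 3 pools against 3 allow, and 0.131 after Benjamini-Hochberg adjustment over the 21 pairs. No pair could therefore pass at 0.05. The 21 ratios come from 7 genes and are not independent. Single genes did not overlap in 18.0% (lower) and 17.1% (higher) of all tested genes. The share for ratios of any 2 genes was not taken. The 6 pairs that contain opn1mw2 did not overlap and changed by 2.81 to 3.56 on the log2 scale. This follows from the decrease of the other 6 opsins without a decrease of opn1mw2, and is not a further result. Among the other 15 pairs, 10 did not overlap, and the largest change was 0.75, between opn1sw2 and rho.

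Sorted by decrease, the order was rho, opn1sw1, opn1lw1, opn1mw1, opn1lw2, opn1sw2 and opn1mw2. The first neighbours in this order, rho and opn1sw1, were not separated, since their ratio changed by 0.20 with overlapping groups (exact permutation p = 0.5), and by 0.03 without EWSR1-ERG replicate 1. In these pools the ultraviolet opsin was lowered more than the red opsin next to it, though no pair could pass the test. There were 10.2, 10.7 and 9.92 counts of opn1sw1 per count of opn1lw1 in wild-type pools, as against 9.13, 7.55 and 8.22 with EWSR1-ERG (exact permutation p = 0.1). From opn1lw1 through opn1mw1 to opn1lw2 the neighbours overlapped (exact permutation p = 0.7 and 1), but this rested on single pools. The ratio of opn1mw1 to opn1lw1 changed by 0.10, by 0.22 without overlap when EWSR1-ERG replicate 2 was left out, and by -0.01 without replicate 1. That of opn1mw1 to opn1lw2 changed by 0.00, and by -0.12 without overlap when EWSR1-ERG replicate 1 was left out. Groups of fewer pools separate more easily, and both losses of overlap had an exact permutation p of 0.2. The ratio of opn1sw2 to opn1lw2 rose from 0.421, 0.419 and 0.424 to 0.533, 0.433 and 0.440 without overlap, and the change of 0.15 was 0.05 without EWSR1-ERG replicate 1.

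**Figure D2:**
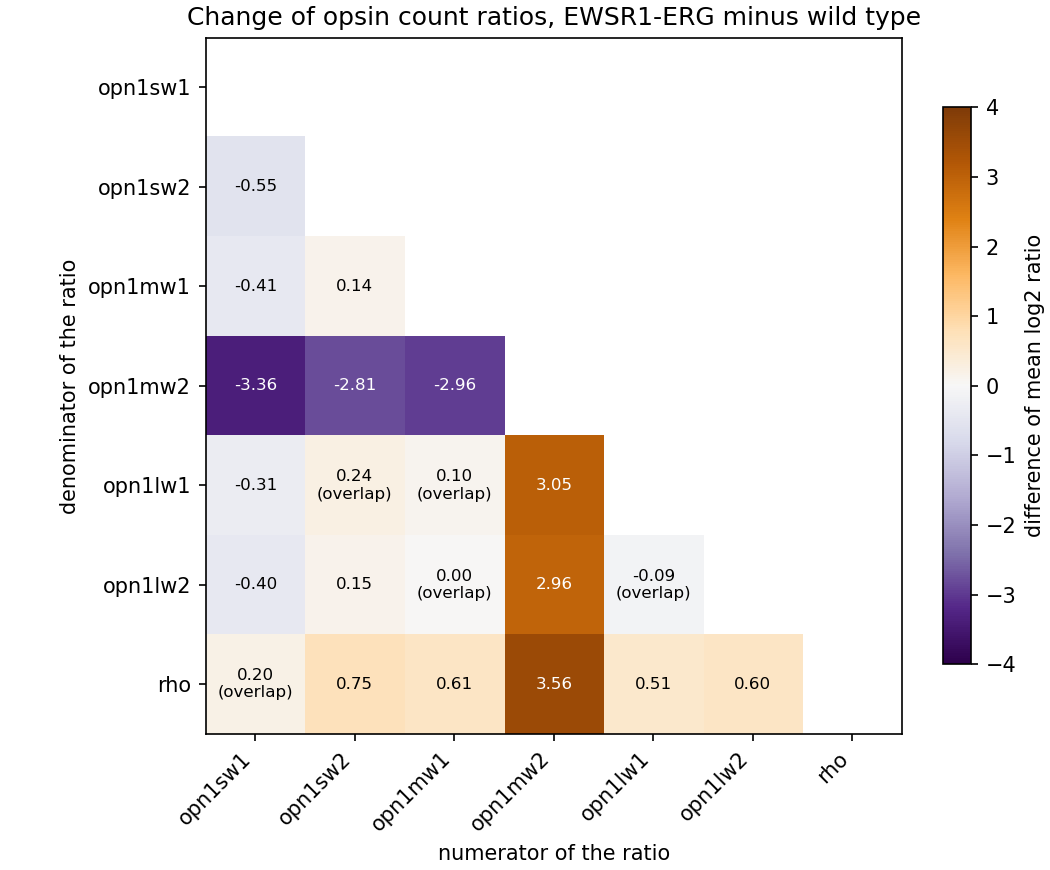
Change of the mean log2 count ratio, EWSR1-ERG minus wild type, for the 21 pairs, with the numerator on the horizontal and the denominator on the vertical axis. Pairs with opn1mw2 changed by 2.81 to 3.56 in size, all others by at most 0.75, and the 5 pairs whose groups overlapped carry the word overlap.

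Within the green rows, 90.4, 101 and 91.8 counts of opn1mw1 stood beside each count of opn1mw2 in wild-type pools. In EWSR1-ERG pools there were 13.6, 12.8 and 10.3. The pools of the groups were thus far apart, by 7.76-fold, and opn1mw2 counts did not keep a fixed proportion to opn1mw1 counts. For the red paralogs the groups overlapped, though single pools decided this. Counts of opn1lw1 per count of opn1lw2 were 0.130, 0.126 and 0.128 in wild-type pools and 0.122, 0.135 and 0.105 in EWSR1-ERG pools, with a difference of log2 ratios of -0.09 (exact permutation p = 0.6). The EWSR1-ERG pools spread more widely. Without EWSR1-ERG replicate 2 the difference was -0.18 and the groups no longer overlapped (exact permutation p = 0.2), which fewer pools reach more easily. Without EWSR1-ERG replicate 3 the difference was 0.00.

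**Figure D3:**
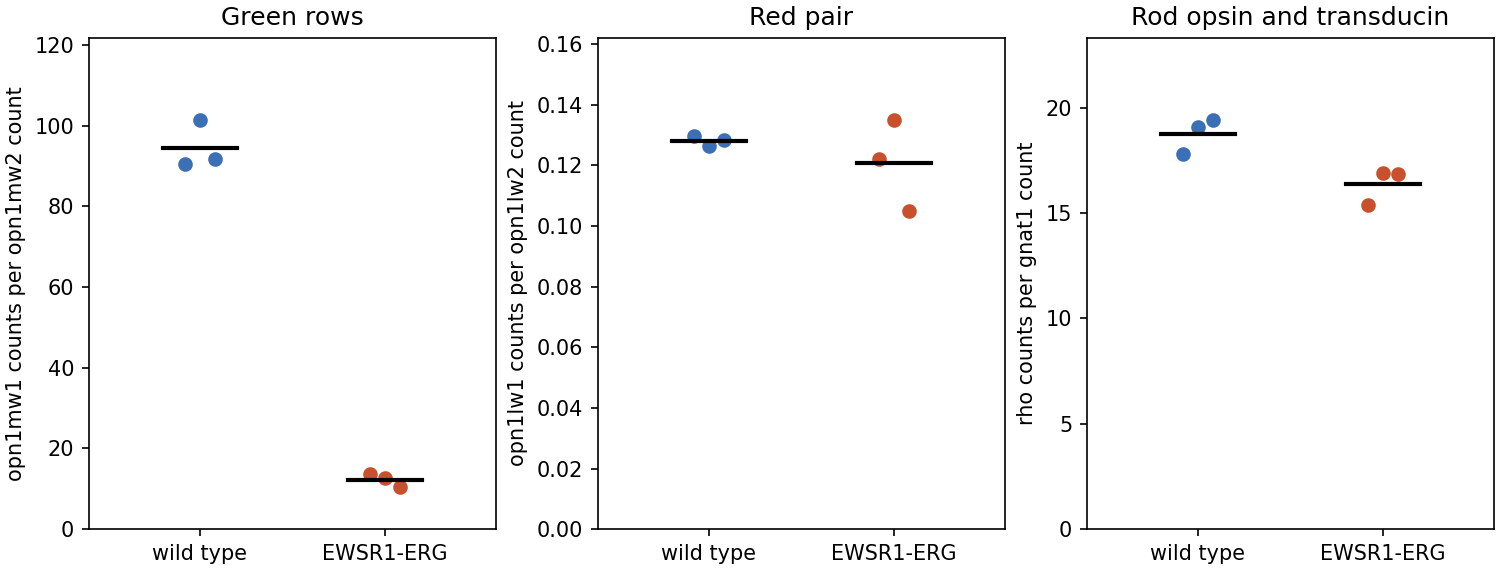
Count ratios within each library for the green rows (left), the red pair (middle) and rhodopsin beside the rod transducin gene gnat1 (right); points are pools, bars are means of 3 pools and axes start at 0. The green ratio dropped from 90.4 or more to 13.6 or less, the red ratios overlapped, and rho per gnat1 went from 17.8 or more to 16.9 or less.

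Rods and cones were compared through rho and the sum of the 6 cone opsins. There were 0.350, 0.369 and 0.427 rho counts per cone opsin count in wild-type pools and 0.215, 0.323 and 0.273 with EWSR1-ERG. No overlap was seen between the groups (difference of log2 ratios -0.51, exact permutation p = 0.1). With each pool left out in turn the difference ran from -0.65 to -0.36. Its sign could not change, because the groups did not overlap. Rod opsin counts were thus lowered by a larger factor than the summed cone opsin counts in these pools, at the smallest p that this design allows. This did not hold for each cone opsin. The ratio of opn1sw1 to rho changed by 0.20 with overlapping groups (exact permutation p = 0.5), while the ratios of the other cone opsins to rho did not overlap.

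As shares of the summed opsin counts, which depend on transcript length and are not shares of molecules, rho went from 27.6% ± 2.08 to 21.2% ± 3.37 and opn1sw1 from 26.2% ± 1.15 to 23.0% ± 1.52 (SD, n = 3 per group). The shares of opn1lw2 went from 19.9% ± 0.436 to 23.1% ± 1.57, of opn1mw1 from 15.2% ± 0.372 to 17.7% ± 1.92, and of opn1sw2 from 8.40% ± 0.160 to 10.8% ± 1.02. The row opn1mw2 went from 0.161% ± 0.0110 to 1.45% ± 0.182. These 6 shares did not overlap between the groups (exact permutation p = 0.1 each), while that of opn1lw1, at 2.55% ± 0.0739 and 2.78% ± 0.223, overlapped (exact permutation p = 0.2). The shares of a pool add up to the whole, so a fall in some raises others and they are not separate results. The largest shift was that of rho, whose share dropped by 6.40 percentage points while the sum of all 7 became 7.69-fold lower.

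**Figure D4:**
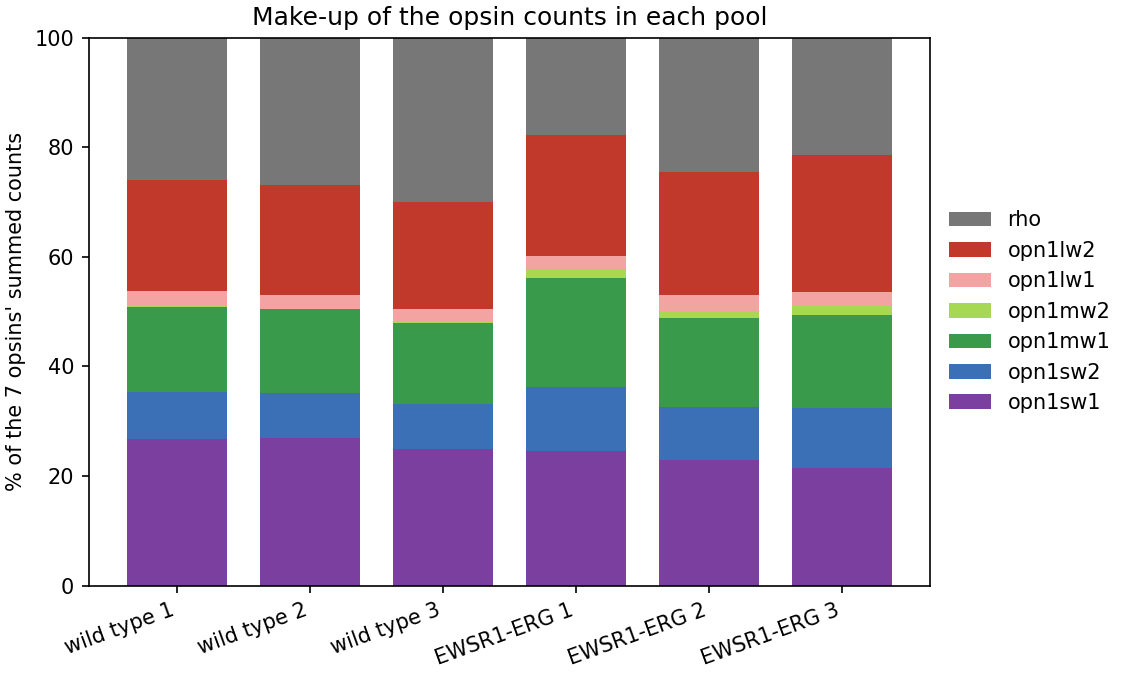
Share of each opsin gene in the summed counts of the 7 genes, as stacked bars for each of the 6 pools. The grey part, rho, covered 25.9% to 29.9% in wild-type and 17.7% to 24.4% in EWSR1-ERG pools, and the other parts changed by less.

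Most genes whose proteins act just after the opsins were lower too, by unequal factors. Of 24 listed genes of cone phototransduction, 18 were tested, of which 17 were lower and none higher, with a median log2 fold change of -2.19. This count and those of the next 2 lists stand beside 9.87% lower among all tested genes. The cone count is not free of the filter, which a gene could pass through its wild-type counts alone. Among others this held for guca1g, grk7b, gucy2f and guca1c, named after their values were seen. They averaged 0.613, 0.701, 0.820 and 1.36 CPM with EWSR1-ERG, so their lower calls were partly set by the filter. The smallest p-values belonged to gngt2b, a cone transducin gamma subunit, at -2.62 (adjusted p = 2.43e-09), and grk7a, the cone opsin kinase, at -3.06 (adjusted p = 2.53e-09). The smallest decrease in this list was that of pde6ha, a phosphodiesterase subunit gene named after its value was seen. It went from 154 to 117 CPM (-0.40, adjusted p = 0.0244), far less than the lowered opsins. The member that did not pass, named after its value was seen, was the channel subunit gene cnga3b at -0.83 (adjusted p = 0.188). Of 21 genes listed under rod phototransduction, 13 were tested and 11 were lower, with a median of -2.33. Among these lower genes guca1a and guca1b, also named after their values were seen, entered through wild-type counts. They averaged 0.850 and 0.456 CPM with EWSR1-ERG. Here gnat1, the rod transducin alpha subunit, stood at -3.12 (adjusted p = 2.53e-09) and grk1b, an opsin kinase, at -3.67 (adjusted p = 3.74e-09). These data do not show whether grk1b counts came from rods or from cones. Neither slc24a1 at -0.65 nor gnb1a at -0.20, both named after their values were seen, passed. In the list of outer segment and retinoid genes 15 of 16 tested genes were lower (median -1.41), among them rbp3, which encodes a retinoid carrier of the space around the photoreceptors, and prph2b, a structural protein of disc rims, at -3.12 and -2.84. The gene that missed the threshold was tulp1a at -0.38 (adjusted p = 0.391), singled out with its value known.

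The opsins were also set against their own transducins within each library. There were 8.55, 8.43 and 9.54 cone opsin counts per count of gnat2, the cone transducin alpha subunit, in wild-type pools and 8.24, 7.99 and 8.52 in EWSR1-ERG pools, with overlapping groups (exact permutation p = 0.2, and 0.2 after adjustment over 4 such ratios, which were chosen after seeing the data). The difference of log2 ratios was -0.10, and -0.04 without wild-type replicate 3. The groups no longer overlapped without wild-type replicate 2 (-0.13) or without EWSR1-ERG replicate 3 (-0.12), though groups of fewer pools separate more easily. For rho per gnat1 the values were 17.8, 19.1 and 19.4 against 15.4, 16.9 and 16.9, without overlap and 1.15-fold lower (exact permutation p = 0.1, adjusted 0.133). The ratio of gnat1 to gnat2 was itself 1.33-fold lower in EWSR1-ERG pools (exact permutation p = 0.1, adjusted 0.133). In these pools rod transducin counts were thus lowered more than cone transducin counts, as were those of rhodopsin against the summed cone opsins. Neither ratio could pass at 0.05 with this design.

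Transcription factors that regulate opsin genes or photoreceptor fates were divided. Of 22 listed, 20 were tested: 9 were lower and 1 was higher, 10 missed the threshold, and the median was -0.46. Among all tested genes 9.87% were lower and 7.46% higher, so 1 higher gene of 20 does not exceed the latter share. The difference between this list and the opsins was not tested. The smallest p-values were those of otx5 at -0.80 (adjusted p = 0.000275) and crx at -0.72 (adjusted p = 0.000297), homeobox genes of photoreceptors and the pineal organ. Some regulators of particular opsins are named after their values were seen. Values of six7, which in zebrafish promotes green and blue opsin expression, and nr2e3, which acts in rods, were -0.66 (adjusted p = 0.00343) and -0.81 (adjusted p = 0.00365). Neither tbx2b, needed for ultraviolet cones, at 0.11 (adjusted p = 0.61), nor thrb, needed for red cones, at -0.45 (adjusted p = 0.235), nor foxq2, needed for blue cones, at -0.97 (adjusted p = 0.0614), passed the test. The higher gene was tefa, a clock-related factor, at 0.46 (adjusted p = 0.0107).

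Per count of crx there were 45.3, 44.0 and 48.0 opsin counts in wild-type pools and 9.37, 10.5 and 9.54 in EWSR1-ERG pools. The groups were far apart, with opsin counts 4.67-fold lower relative to crx (exact permutation p = 0.1, adjusted 0.133). In whole embryos crx and otx5 are also made outside the retina, in the pineal organ.

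**Figure D5:**
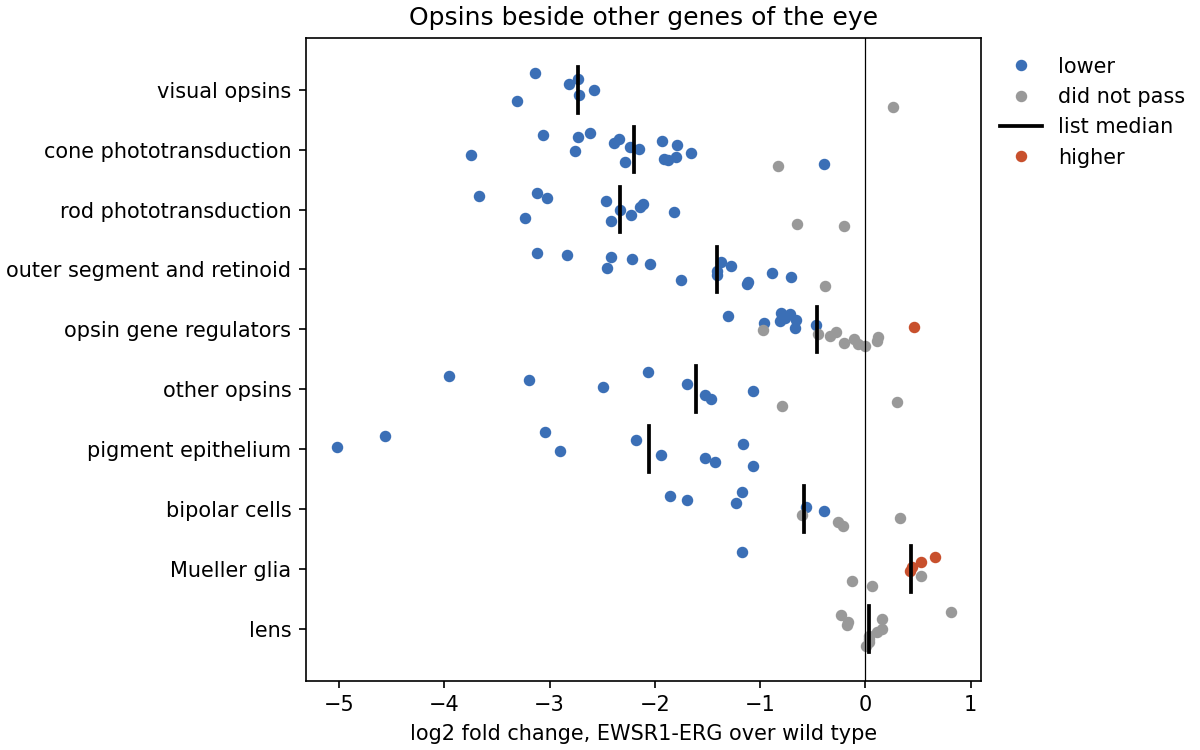
Log2 fold change, EWSR1-ERG over wild type, of each tested gene in the opsin set and in lists of other eye genes; blue points were lower, red points higher and grey points did not pass, and black lines are list medians. The opsins lay at a median of -2.73 with opn1mw2 apart at 0.26, the regulators at -0.46 and the lens genes at 0.04.

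The list of other opsins holds the green rows opn1mw3 and opn1mw4 described above and the rhodopsin-like gene rhol. Its other entries are opsins that serve light sensing outside the visual cones and rods or help to recycle retinal. Of 35 entries, 30 were matched and only 10 had enough counts to be tested. Of these, 8 were lower and none higher (median -1.61), beside 9.87% lower and 7.46% higher among all tested genes. Since testing itself needed counts in a group, this says nothing of the 20 that were not tested. It also favours lower calls, because genes with few counts could enter through their wild-type counts alone. This held for rrh, rhol, opn8b and opn4xb, named after their values were seen. They averaged 0.931, 0.992, 1.05 and 1.07 CPM with EWSR1-ERG, so their lower calls were partly set by the filter. The photoisomerase-like genes rgrb at -2.06 (adjusted p = 1.5e-06) and rgra at -3.96 (adjusted p = 3.2e-06), both also of the pigment epithelium and neighbouring glia in other vertebrates, had the smallest p-values. Those that missed the threshold were tmtops2b at 0.30 (adjusted p = 0.104) and opn3 at -0.79 (adjusted p = 0.135), both chosen after their values were known. The rhodopsin-like gene rhol, also named after its value was seen, averaged 5.29 ± 0.223 CPM without and 0.992 ± 0.674 CPM with EWSR1-ERG (SD, n = 3 per group; -2.49, adjusted p = 0.000349). The pineal rhodopsin gene exorh, a close relative of rho, was not matched and has no value here.

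Markers of other cells of the eye and the pineal organ moved unequally beside the opsins, and their part in the opsin result was not tested. The counts below stand beside 9.87% lower and 7.46% higher among all tested genes. All 10 tested pigment epithelium genes were lower, with a median of -2.06 and a summed level of 1504 to 2103 CPM in wild-type and 325 to 556 CPM in EWSR1-ERG pools; rdh5 (-3.05, adjusted p = 1.73e-07) and rlbp1b (-4.56, adjusted p = 5.1e-06), genes of the visual cycle, had the smallest p-values. Several of these are also genes of skin pigment cells. Of 10 bipolar cell genes 6 were lower (median -0.58, summed level 171 to 211 against 113 to 135 CPM), with the channel genes trpm1b at -1.18 and trpm1a at -1.86 first. By contrast, of 11 lens genes none passed (median 0.04, summed level 2731 to 4797 against 3187 to 4849 CPM); bfsp2 at 0.81 (adjusted p = 0.137) and mipa at -0.23 (adjusted p = 0.427) had the smallest p-values, and cryaba was at 0 in all libraries. Mueller glia genes, many of which are shared with glia of the brain, gave 4 higher and 1 lower of 8, and 3 did not pass. Their median was 0.43 and the summed level 913 to 1011 against 1160 to 1232 CPM. The 2 with the smallest p-values went opposite ways, rlbp1a at -1.17 and aqp1a.1 at 0.66. Whether the higher counts came from Mueller glia cannot be told in whole-embryo RNA.

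Among neurons of the inner retina, whose markers are also used in the brain, 1 of 8 ganglion cell genes was lower (rbpms2b at -0.57, adjusted p = 0.0145), followed by isl2a at -0.33, which did not pass. That share is near the 9.87% of all tested genes that were lower. The median was -0.33 and the summed level 129 to 154 against 102 to 133 CPM. For amacrine and horizontal cells, 1 of 9 was lower (gad1b at -1.01, adjusted p = 0.00966), again near that 9.87%, followed by chata at -1.07, which did not pass (median -0.36, summed level 276 to 418 against 201 to 283 CPM). Of 5 tested pineal genes 2 were lower, otx5 and gch2 (-0.67, adjusted p = 0.0417), with a median of -0.67 and a summed level of 160 to 219 against 96.0 to 133 CPM. Most of this sum was gch2, at 129 ± 27.6 CPM in wild-type pools (SD, n = 3), which is also a gene of skin pigment cells. The 3 pineal genes that did not pass, given after their values were seen, were tph1a at -1.09 (adjusted p = 0.102), aanat2 at -0.32 (adjusted p = 0.487) and asmt2 at 0.27 (adjusted p = 0.548), of which the latter pair make melatonin. All 14 tested photoreceptor markers other than visual opsins were lower, with a median of -2.50 and a summed level of 2388 to 2634 against 497 to 533 CPM. Each of these 14 also stands in the cone, rod, outer segment or regulator list above, so they add no further genes.

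The genes with the profile most like each opsin were sought among 8428 tested genes with a mean count of at least 100, by the root mean square difference of log2 CPM over the 6 pools after each gene's mean was removed. Both groups were centred together, so this distance depends largely on the size of the group difference. Nearness is therefore not separate evidence that genes vary together between pools of a group. For rho the nearest were gnat1 (difference 0.131), gngt1 (0.158), the rod transducin gamma subunit, and fbp2 (0.172), a gluconeogenic enzyme gene. The green row opn1mw1 was nearest to gngt2b (0.0719), gnat2 (0.0869) and prph2b (0.136), and the blue opsin opn1sw2 to gngt2b (0.0742), the mitochondrial phosphate carrier gene slc25a3a (0.0892) and gnat2 (0.119). Both red opsins had prph2b (0.0605 for opn1lw1 and 0.0749 for opn1lw2) and gnat2 (0.110 and 0.107) in front, followed by tfa (0.137), a transferrin gene, for opn1lw1 and gngt2b (0.137) for opn1lw2. The ultraviolet opsin opn1sw1 was nearest to rbp3 (0.108), which the files list as irbp, to grk7a (0.123) and to another row listed as irbp (0.131). The profile of opn1mw2 was nearest to those of AEBP1 (1 of 2) (0.0592), ptbp3 (0.0616) and UTRN (0.0653), none of which passed the test.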

How the data were processed

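Each of the 6 files held expected counts of reads per Ensembl gene as deposited by the authors. Bowtie2, SAMtools, DESeq and build Zv9 are named, without roles, per the submitters' processing notes. No source used here says how reads were counted, whether strand was used or what was done with reads matching several places. Gene values were whole numbers, and the unit is called expected counts because each file ends in a size factor that is not whole. That factor was not applied. In each file 2 lines belong to no gene and stayed out of totals and tests.

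Genes were kept by edgeR's filterByExpr (minimum count 10, minimum total 15) and scaled by TMM. A gene could pass this filter through the counts of 1 group alone. EWSR1-ERG was compared with wild type by the quasi-likelihood F test (edgeR 4.0.16, limma 3.58.1 and DESeq2 1.42.0 in R 4.3.3), robust, adjusted over all 17557 tested genes, at 0.05. The SE of a log2 fold change is its size divided by the square root of F, an approximation. Sums, shares and ratios were compared by two-sided exact permutation over pools (scipy 1.17.1). The interval for opn1mw2 is Clopper-Pearson. The fit was tested on simulated data.

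All 7 members are named. From each list the 2 genes with the smallest p are named, and for each member the 3 nearest profiles of genes outside the 7 (prior count 2). List symbols were matched by file symbol, gene name table or RefSeq synonym; symbols on several rows, such as gnb1b, were left out. Members and lists were chosen with earlier results of these data known. Levels per length, protein and promoter sequences and motifs had been planned and are not reported, since no lengths or sequences were used here.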

Additional observations from a re-analysis of the deposited data

How the results depend on the processing

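The 6 opsin genes called lower were called under all 15 alternatives (scaling by DESeq2 size factors, upper quartile or library totals, 2 other filters, DESeq2, limma-voom, mitochondrial genes left out, the replicate block, and each pool left out in turn), and opn1mw2 was positive and not called in all 15 (0.10 to 0.34, adjusted p 0.235 to 0.787). The log2 fold change of rho ran from -3.46 to -3.13 and that of opn1sw1 from -3.17 to -3.09; the summed level ran from -2.99 to -2.87. Pairs of opsins without overlap numbered 16, and 16 to 19 with a pool left out. This number could not fall, because groups that do not overlap stay apart when a pool is removed. Among all tested genes, leaving out a pool gave 981 to 1668 lower and 646 to 1334 higher; the lowest counts came without wild-type replicate 2, followed by 1135 and 718 without wild-type replicate 1, so the background, unlike the opsin calls, moved with these libraries. Whether replicate numbers pair the pools is not stated in the labels. Deviations of same-numbered pools correlated at -0.12, 0.09 and -0.02, and those of differently numbered pools at -0.20 to 0.17. These weak values cannot decide whether pools were paired. With the replicate block, 1482 genes were lower and 1066 higher, and opn1sw1 stood at -3.13. Shares and levels per kilobase were not run, since no lengths were used. With 3 pools a group, no exact test of sums or ratios can pass at 0.05, and counts of 46 to 189 limit opn1mw2.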

Other observations

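The protein-coding genes that flank the opsins in the RefSeq annotation of GRCz12tu were looked up by position, not by value, and 6 of them were tested. Beside opn1sw1 stand calua, which encodes a calcium-binding protein of the secretory pathway, which rose from 60.4 ± 4.03 to 84.4 ± 16.0 CPM with EWSR1-ERG (log2 fold change 0.48, adjusted p = 0.0218; SD, n = 3 per group), and tnpo3, a nuclear import receptor gene, at 0.22 (adjusted p = 0.175). The chromosome 11 opsins are flanked by hcfc1a, a transcriptional co-regulator gene, at 0.12 (adjusted p = 0.487), and gnl3l, a nucleolar GTPase gene, at 0.41 (adjusted p = 0.0503). The gene before the green opsins, slc6a22.2 (listed as slc6a13l), a transporter gene, stood at -0.18 (adjusted p = 0.634). The neighbour of rho, magi1a, a junction scaffold gene, fell from 50.5 ± 0.780 to 33.0 ± 4.67 CPM (-0.60, adjusted p = 0.00351; SD, n = 3 per group). None of the 6 had a decrease near that of the lowered opsin beside it.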
